A study of Sus scrofa with 16 samples.

Results

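The interferon response and MHC genes of the left ventricle were taken as every gene on the array whose symbol begins with IFI, IRF, ISG, OAS, GBP, STAT or SLA-, together with MX1, MX2, DDX58, RSAD2, TAP1, TAP2, TAPBP, B2M, CD74 and USP18. This gave 47 of the 6765 genes named by a probe set with a single symbol, a probe set being a group of short DNA probes against one transcript. Each gene was read on the brightest of its probe sets, 80 in all, and 18 genes had more than 1. TAP2 was not measured by a probe set of its own. The 47 genes were sorted into 14 signalling genes (DDX58 and the IRF and STAT symbols), 16 effectors, 8 genes of MHC class I presentation and 9 of MHC class II presentation. Membership follows the symbol, so some members, such as STAT5A and ISG20L2, have roles outside the interferon response.

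Interferons are secreted proteins, and those of type I are released by cells on sensing viral or misplaced nucleic acid. Interferon receptors act through JAK kinases and STAT proteins. The STAT proteins join with interferon regulatory factors (IRFs) to switch on a large set of antiviral genes and the machinery of antigen presentation. MHC class I molecules, called SLA in the pig, show peptides from inside the cell and are made by nearly all nucleated cells, whereas class II molecules are made mainly by antigen-presenting cells such as macrophages, dendritic cells and B cells, which live in the heart among the cardiomyocytes, fibroblasts and vessel cells.

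RNA came from frozen left ventricle of 8 exercise-trained and 8 sedentary Yorkshire x Landrace pigs, in a study of physiological cardiac hypertrophy. All were 2 to 3 months old, each group had 4 females and 4 castrated males, and tissue was collected 4 to 5 weeks into the protocol. The labels do not give the kind or load of exercise. Each pig had 1 Affymetrix array, so the spread given is that between animals. Because whole tissue was measured, fewer cells of a type and less RNA per cell cannot be told apart.

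Array medians lay between 6.236 and 6.242 log2. For the cardiac origin, 12 cardiomyocyte markers were measured, and only the level of RYR2 is given here. This calcium release channel averaged 11.74 log2 in exercised and 11.38 log2 in sedentary animals. Its training difference, 0.36 log2, was the largest of the 12, whose median was 0.01 log2. Spiked-in bacterial poly-A transcripts parted the arrays in a way the labels do not name. They averaged 7.63 log2 on 11 arrays (6 exercised, 5 sedentary), termed high-spike here, and 5.99 log2 on 5 low-spike arrays, those of exercised 7 and 8 and sedentary 6, 7 and 8. Of the 47 genes, 37 had a mean level over 6.88 log2, the 60th percentile of all probe sets, and 2, ISG20 and STAT4, were under 5.57 log2, the 40th percentile.

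Training was compared with limma, averaged over the sexes, on all 23935 probe sets. Among the 47 genes 3 rose in exercised animals, namely ISG20, IRF7 and SLA-DMA, and 0 fell. The background was 5.11% of all named genes higher and 4.91% lower on their brightest probe set, and 13.4% of all probe sets called in either direction. The share of the 47 called higher was thus close to that of all named genes. Another 44 did not pass, and 10 of the 47 (21.3%) had an unadjusted p under 0.05, against 22.9% of all named genes. Differences ran above 0 for 35 genes and below 0 for 12, with a median of 0.12 log2, beside 0.01 log2 over all named genes. In the same fit on high-spike arrays alone, 22 of the 47 were above 0 and the median was -0.03 log2. In 0 of the 47 were the exercised and sedentary values fully apart, beside a background of 1.09% of named genes with all exercised animals above and 1.14% with all below.

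**Figure D1:**
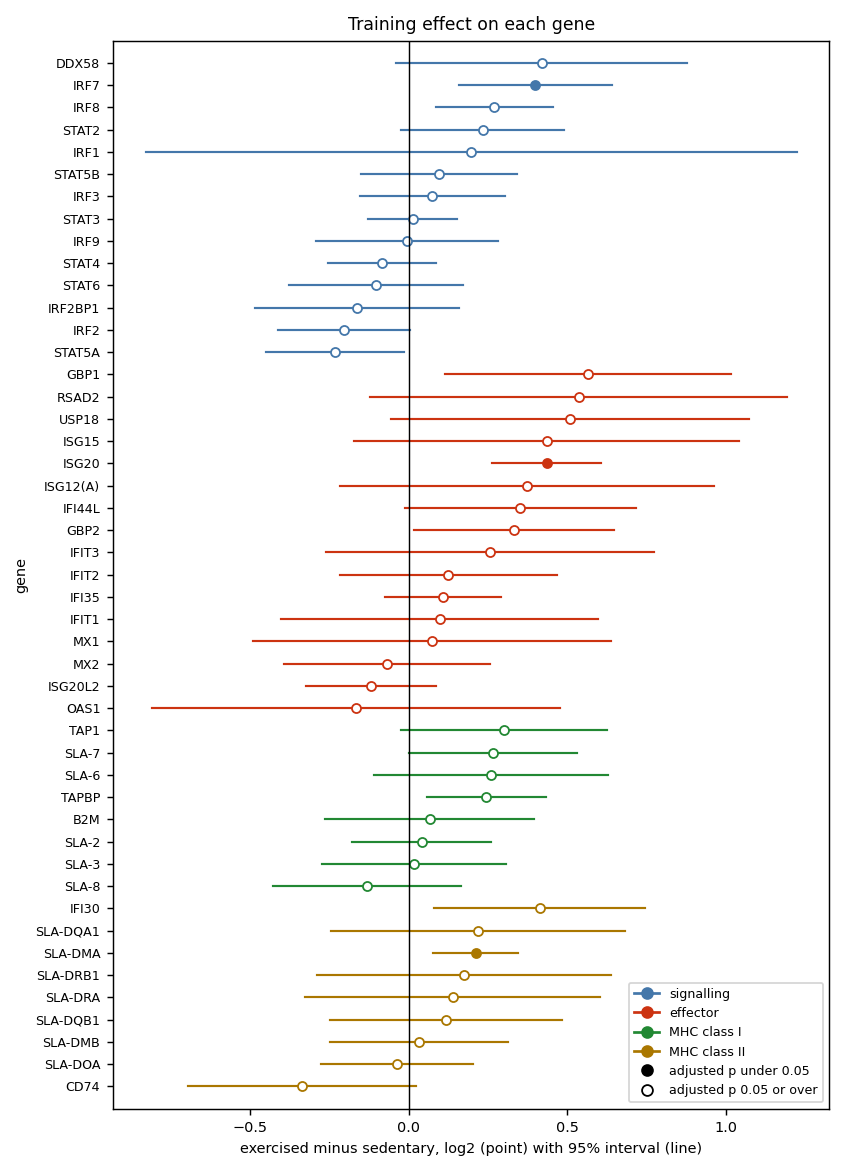
Exercised minus sedentary difference of each of the 47 genes on the log2 scale (horizontal axis), as points with 95% intervals as lines, grouped by role. Filled points mark the 3 genes with an adjusted p under 0.05 (ISG20, IRF7 and SLA-DMA), and the widest interval belongs to IRF1.

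Precision differed between genes. The 95% interval of the difference lay within 0.5 log2 of 0 on both sides for 24 of the 47. It was narrow for STAT3, at -0.13 to 0.15 log2, and wide for IRF1, at -0.83 to 1.22 log2. The median SD between animals was 0.34 log2 in exercised and 0.28 log2 in sedentary pigs. Without exercised 2, a female that is described with the effectors, it was 0.27 log2 in exercised pigs. For the effectors it was 0.49 log2 in exercised and 0.34 log2 in sedentary pigs, and 0.37 log2 in exercised pigs without exercised 2.

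Of the 14 signalling genes, 1 rose, 0 fell and 13 did not pass, with a median difference of 0.04 log2. IRF7, the transcription factor that amplifies type I interferon production, had 6.34, 6.56 and 7.22 log2 as lowest, median and highest values in exercised animals, against 5.98, 6.27 and 6.46 log2 in sedentary animals. All 8 exercised animals stood above the sedentary mean, and the groups overlapped only between 6.34 and 6.46 log2. The difference was 0.40 log2 (SE 0.11, a fold of 1.32, adjusted p = 0.0284). It kept its direction in every fit that left out 1 animal, but passed in 10 of the 16. It missed the threshold without exercised 7 or 8 or sedentary 1, 2, 3 or 4, with adjusted p from 0.0512 to 0.0575. The adjusted p was 0.0619 with the 40th percentile filter and 0.0839 on high-spike arrays alone.

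IRF8, a factor of dendritic cell and macrophage development, had 6.51, 6.71 and 7.04 log2 (lowest, median, highest) in exercised animals, against 6.36, 6.46 and 6.66 log2 in sedentary animals. Again all 8 exercised animals lay above the sedentary mean, with a difference of 0.27 log2 (95% interval 0.09 to 0.45, adjusted p = 0.051), which did not pass. DDX58, the RNA sensor RIG-I, had 6.29, 6.57 and 8.26 log2 in exercised animals, against 5.76, 6.48 and 6.72 log2 in sedentary animals. Its highest value was that of exercised 2, and the difference was 0.42 log2 (95% interval -0.04 to 0.88, adjusted p = 0.229), and 0.22 log2 without exercised 2.

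STAT2 and IRF9, which carry the type I interferon signal to the nucleus, did not pass. STAT2 had 7.20, 7.27 and 8.11 log2 in exercised animals, against 7.01, 7.22 and 7.63 log2 in sedentary animals. IRF9 had 7.36, 7.48 and 8.56 log2 in exercised animals, against 7.43, 7.65 and 7.96 log2 in sedentary animals. The top value of both was exercised 2. Without that animal the differences were 0.15 log2 for STAT2 and -0.13 log2 for IRF9.

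IRF1, a factor induced by interferon gamma, varied most between animals within each group. It had 7.80, 8.48 and 10.77 log2 in exercised animals, against 7.39, 8.09 and 11.13 log2 in sedentary animals. The peaks came from exercised 7, a castrated male, and sedentary 1, a female, and the other 14 animals lay at or below 8.79 log2. Its difference was -0.48 log2 among high-spike arrays and 1.78 log2 among low-spike arrays, against 0.20 log2 over all animals (adjusted p = 0.845). It was -0.11 log2 without exercised 7 and 0.61 log2 without sedentary 1.

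The lowest differences in the signalling group were those of STAT5A, IRF2 and IRF2BP1. STAT5A, which carries growth hormone and cytokine signals, had 6.78, 7.21 and 7.58 log2 in exercised animals, against 7.28, 7.48 and 7.73 log2 in sedentary animals, a difference of -0.23 log2 (95% interval -0.45 to -0.01, adjusted p = 0.157). A dimmer STAT5A probe set, at 5.63 log2, fell by 0.33 log2 (adjusted p = 0.000831), with 5.39 to 5.63 log2 in exercised animals below all sedentary animals at 5.67 to 5.90 log2. IRF2, which competes with IRF1 for its sites, had 7.04, 7.28 and 7.69 log2 in exercised animals, against 7.38, 7.57 and 7.86 log2 in sedentary animals, a difference of -0.20 log2 (adjusted p = 0.194). IRF2BP1, a corepressor that binds IRF2, had 6.30, 6.51 and 7.21 log2 in exercised animals, against 6.37, 6.63 and 7.36 log2 in sedentary animals (adjusted p = 0.551). Its values on the 5 low-spike arrays, 3 of them sedentary, were all above those on the high-spike arrays. The IRF2BP1 difference was -0.16 log2 over all animals and -0.05 log2 in the fit on high-spike arrays alone. The groups overlapped for all 3 genes on their brightest probe sets.

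**Figure D2:**
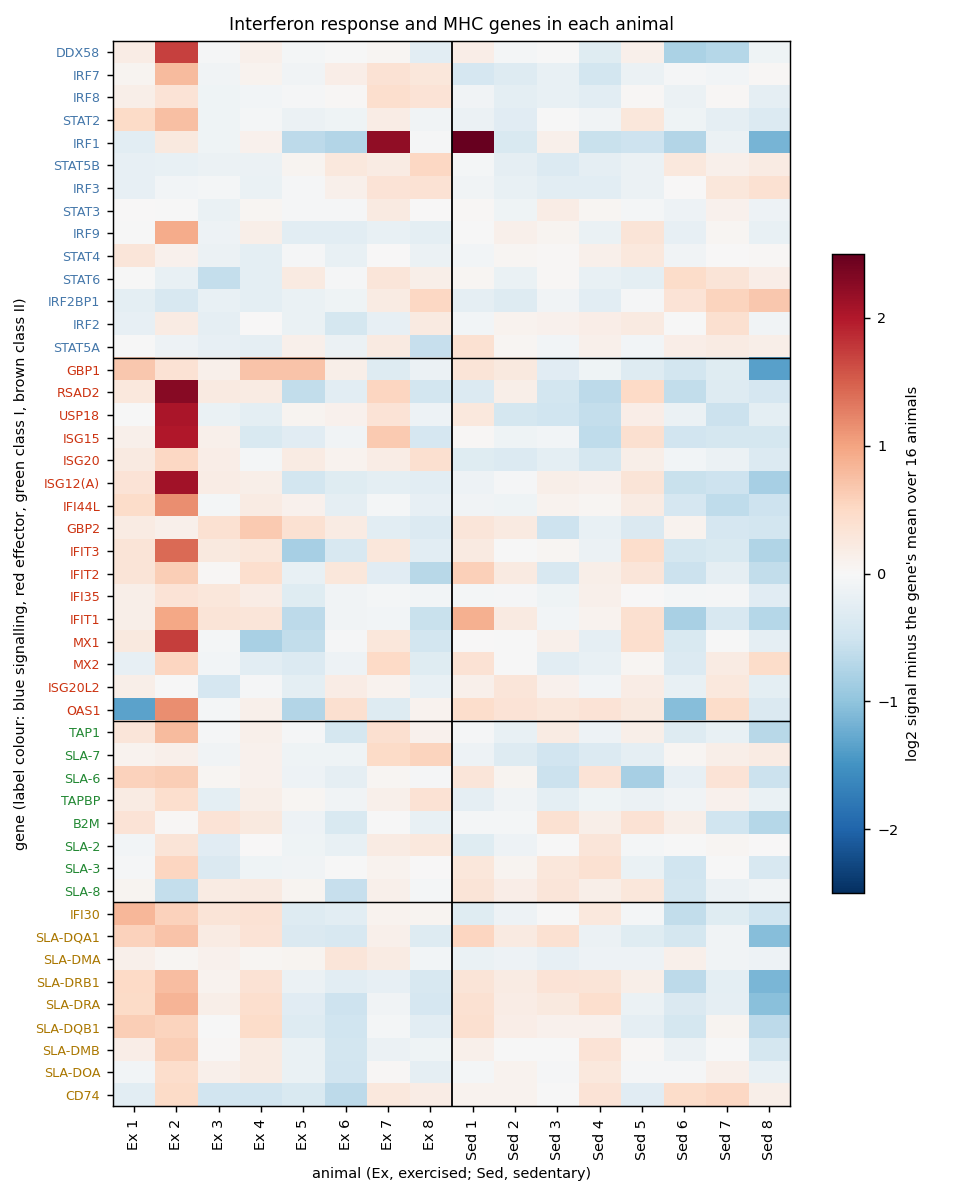
Deviation of each gene's log2 signal from its mean over the 16 animals (colour, red above and blue below the mean), with exercised animals on the left and sedentary animals on the right, and genes grouped by role and ordered by the training difference. The column of exercised 2 is red through most effectors, IRF1 stands out in exercised 7 and sedentary 1, and several class II genes are lowest in sedentary 8.

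Among the 16 effectors 1 rose, 0 fell and 15 did not pass, with 13 differences above 0 and a median of 0.29 log2. ISG20, an exonuclease that degrades RNA, had 4.67, 4.91 and 5.24 log2 in exercised animals, against 4.28, 4.45 and 4.87 log2 in sedentary animals. All 8 exercised animals lay above the sedentary mean, and sedentary 5, the highest of its group, overlapped with the lower exercised animals. The difference was 0.43 log2 (SE 0.08, a fold of 1.35, adjusted p = 0.00257). It passed in all 16 fits that left out 1 animal, and had an adjusted p of 0.0502 on high-spike arrays alone. The probe set is dim, at 4.72 log2 on average, and was removed by both filters on level.

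Exercised 2 set much of the effectors' spread. This female was the highest of the 16 pigs in 27 of the 47 genes, comprising 13 effectors, 4 signalling genes, 5 class I genes and 5 class II genes, while it was the highest in 5.53% of all probe sets. The mean of the effectors' deviations from their 16-animal means was 1.08 log2 in exercised 2, against -0.25 to 0.13 log2 in the other exercised animals and -0.46 to 0.19 log2 in the sedentary animals. In 11 of the 47 genes, 9 of them effectors, it stood over 1 log2 above the mean of the other exercised animals. At the low end, sedentary 8 had the lowest mean deviation, -0.46 log2 over the effectors and -0.33 log2 over the 47 genes. It was the lowest of the 16 pigs in 10 of the 47 genes, and in 9.28% of all probe sets.

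RSAD2, the enzyme viperin that makes a chain-terminating antiviral nucleotide, had 8.26, 9.10 and 11.15 log2 in exercised animals, against 8.23, 8.51 and 9.39 log2 in sedentary animals. Exercised 2 lay 2.29 log2 above the mean of the other exercised animals, whose SD was 0.43 log2, and the remaining values of the groups overlapped. The difference was 0.54 log2 (95% interval -0.12 to 1.19, adjusted p = 0.291), and 0.26 log2 without exercised 2. RSAD2 is also tiled by 3 Affymetrix control probe sets that were not tested. Exercised 2 was the highest on each, at 8.57, 7.36 and 6.15 log2, against at most 6.47, 7.04 and 4.43 log2 in the other exercised animals and at most 6.48, 7.15 and 4.32 log2 in the sedentary animals.

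USP18, the protease that removes ISG15 from proteins and damps receptor signalling, had 6.99, 7.26 and 9.27 log2 in exercised animals, against 6.63, 6.89 and 7.49 log2 in sedentary animals. All 8 exercised animals were above the sedentary mean, with a difference of 0.51 log2 (95% interval -0.06 to 1.07, adjusted p = 0.238), and 0.25 log2 without exercised 2. ISG15, a ubiquitin-like tag, had 8.58, 9.03 and 11.01 log2 in exercised animals, against 8.38, 8.74 and 9.40 log2 in sedentary animals. Its difference was 0.43 log2 (95% interval -0.17 to 1.04, adjusted p = 0.364), and 0.17 log2 without exercised 2. In ISG12(A), another interferon-induced gene, exercised 2 had 13.14 log2 while the other exercised animals reached at most 11.38 log2, against at most 11.38 log2 in the sedentary animals. Its difference was 0.37 log2 (adjusted p = 0.433), and 0.12 log2 without exercised 2.

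MX1, a dynamin-like GTPase that blocks virus replication, had 7.83, 8.59 and 10.36 log2 in exercised animals, against 8.25, 8.62 and 9.04 log2 in sedentary animals. The difference was 0.07 log2 over all animals (adjusted p = 0.899) and -0.17 log2 without exercised 2. OAS1, which makes the oligoadenylates that switch on RNase L, had 7.86, 9.22 and 10.35 log2 in exercised animals, against 8.12, 9.50 and 9.65 log2 in sedentary animals. Exercised 2 was its highest animal and exercised 1 its lowest, with a difference of -0.16 log2 (95% interval -0.81 to 0.48, adjusted p = 0.785). It was -0.34 log2 without exercised 2 and 0.07 log2 without exercised 1.

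GBP1, a guanylate-binding protein that attacks the membranes around intracellular pathogens, was not led by exercised 2. It had 9.43, 10.00 and 10.46 log2 in exercised animals, against 8.39, 9.45 and 10.08 log2 in sedentary animals. It was highest in exercised 4 and lowest in sedentary 8, and the groups overlapped between 9.43 and 10.08 log2. The difference, 0.57 log2 (95% interval 0.12 to 1.02, adjusted p = 0.0926), was the largest of the 47 and did not pass. It was 0.59 log2 without exercised 2 and 0.38 log2 without sedentary 8. GBP2, its relative, differed by 0.33 log2 (adjusted p = 0.161).

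IFIT1, IFIT2 and IFIT3, which bind foreign RNA, differed by 0.10, 0.12 and 0.26 log2 (adjusted p from 0.557 to 0.842), and exercised 2 was highest in each. Without exercised 2 they differed by -0.01, 0.09 and 0.09 log2. A dimmer IFIT1 probe set, at 6.56 log2, differed by -0.43 log2 (adjusted p = 0.092), opposite to the brightest. IFI44L differed by 0.35 log2 (adjusted p = 0.2), and by 0.23 log2 without exercised 2. ISG20L2, a nucleolar relative of ISG20 that processes ribosomal RNA, differed by -0.12 log2 and was highest in sedentary 2.

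**Figure D3:**
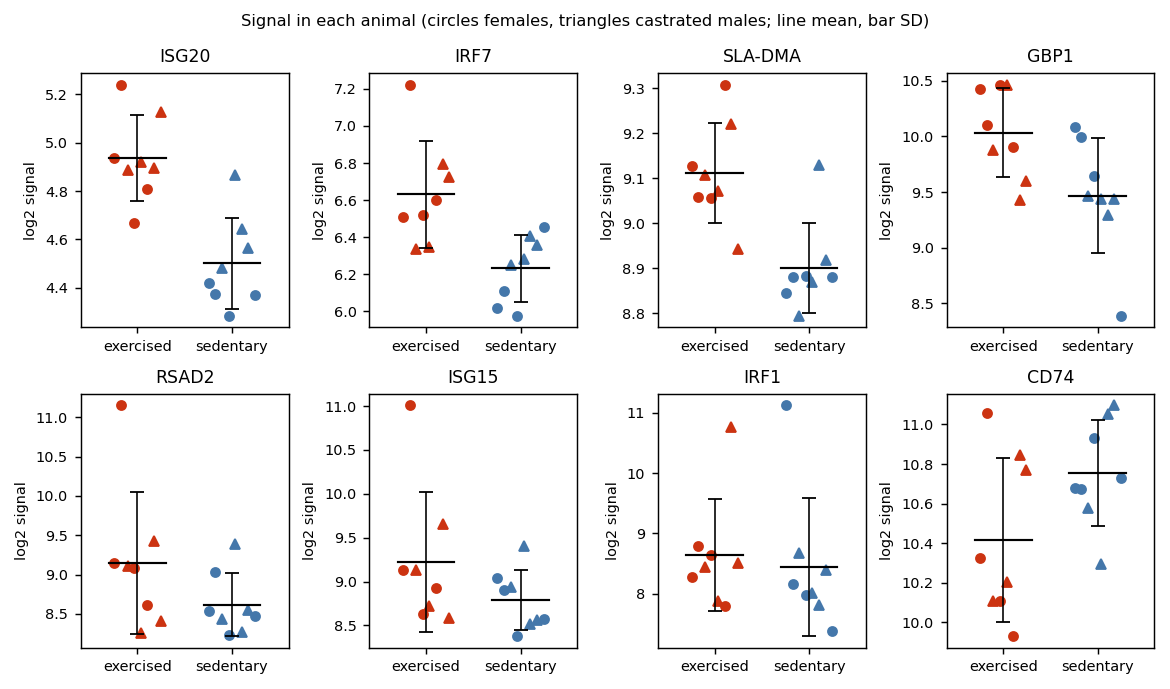
Log2 signal (vertical axis) of 8 genes in each animal, exercised on the left and sedentary on the right of each panel; circles are females, triangles castrated males, lines the group mean and bars the SD. ISG20, IRF7 and SLA-DMA overlap little, RSAD2 and ISG15 have a lone high value in exercised 2 at 11.15 and 11.01 log2, and CD74 lies lower in 5 exercised animals.

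Without exercised 2 the same 3 genes passed (background 4.39% of named genes higher, 4.17% lower), 30 of the 47 differences were above 0, and their median was 0.09 log2. The effectors' median was 0.11 log2, and 11 of 16 were above 0. The medians of the other roles without it were 0.04 log2 for signalling, 0.14 log2 for class I and 0.07 log2 for class II genes.

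**Figure D4:**
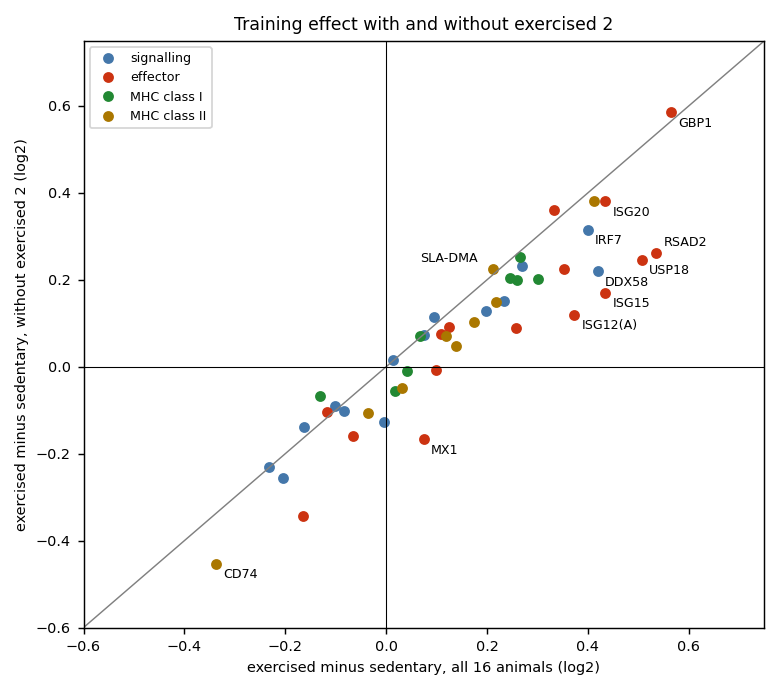
Exercised minus sedentary log2 difference of each of the 47 genes over all 16 animals (horizontal axis) and without exercised 2 (vertical axis), coloured by role; the grey line marks equal values. Most effectors lie below the line, RSAD2 at 0.54 and 0.26 log2 and MX1 at 0.07 and -0.17 log2, while GBP1 lies close to it and CD74 moves to -0.45 log2.

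None of the 8 class I genes passed in limma (0 higher, 0 lower, 2 at an unadjusted p under 0.05), with 7 differences above 0 and a median of 0.16 log2. B2M, the light chain shared by all class I molecules, had 13.34, 13.72 and 14.05 log2 in exercised animals, against 12.99, 13.76 and 14.10 log2 in sedentary animals. The groups lay across each other, with a difference of 0.07 log2 (95% interval -0.26 to 0.40, adjusted p = 0.837). A dimmer B2M probe set, at 9.02 log2, rose by 0.39 log2 (adjusted p = 0.0168), so the probe sets of this gene did not give the same call.

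The classical heavy chains SLA-2 and SLA-3 did not pass on their brightest probe sets. SLA-2 had 12.18, 12.43 and 12.79 log2 in exercised animals, against 12.16, 12.45 and 12.77 log2 in sedentary animals, a difference of 0.04 log2 (95% interval -0.18 to 0.26). SLA-3 had 11.36, 11.70 and 12.26 log2 in exercised animals, against 11.22, 11.74 and 12.10 log2 in sedentary animals, a difference of 0.02 log2 (95% interval -0.27 to 0.31). It was -0.06 log2 without exercised 2. SLA genes are polymorphic and close in sequence, so a probe set may read more than its named gene, and the SLA-2 probe set carries the Affymetrix suffix for possible cross-hybridisation. Of 10 probe sets annotated to more than 1 gene, and left out of the 47 for that, 1 rose, a class I probe set annotated to SLA-1 and SLA-2 among others (0.23 log2, adjusted p = 0.0395).

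Among the non-classical heavy chains SLA-6 differed by 0.26 log2 (adjusted p = 0.375), SLA-7 by 0.27 log2 (adjusted p = 0.181) and SLA-8 by -0.13 log2 (adjusted p = 0.61). SLA-7 had 5.84, 6.05 and 6.51 log2 in exercised animals, against 5.48, 5.78 and 6.16 log2 in sedentary animals, with all 8 exercised animals above the sedentary mean. A dim SLA-6 probe set, at 4.10 log2, rose by 0.22 log2 (adjusted p = 0.0273).

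TAP1, a subunit of the transporter that brings peptides to class I molecules, had 7.85, 8.40 and 9.07 log2 in exercised animals, against 7.59, 8.13 and 8.49 log2 in sedentary animals, a difference of 0.30 log2 (95% interval -0.02 to 0.62, adjusted p = 0.222). Its dimmer probe sets went opposite ways, as one at 4.91 log2 rose by 0.25 log2 (adjusted p = 0.0105) and another at 6.40 log2 fell by 0.32 log2 (adjusted p = 0.0116). TAPBP, the tapasin that bridges transporter and heavy chain, had 7.95, 8.32 and 8.60 log2 in exercised animals, against 7.93, 8.05 and 8.28 log2 in sedentary animals. In 7 of 8 exercised animals it exceeded the sedentary mean, with a difference of 0.25 log2 (95% interval 0.06 to 0.43, adjusted p = 0.0819). Over all 47 genes 33 further probe sets were not the brightest. Of these 3 rose and 2 fell, beside 6.48% of all probe sets higher and 6.88% lower. Differences opposite in sign to the brightest were found for 13 of the 33 in 7 genes. Of the 13, 2, of TAP1 and IFIT1, had an unadjusted p under 0.05. The others were 5 of B2M (-0.22 to -0.03 log2), 2 of SLA-DRB1 (-0.09 and -0.03 log2), a second one of IFIT1 (-0.08 log2), and 1 each of IFIT2 (-0.07 log2), STAT5B (-0.09 log2) and MX2 (0.12 log2).

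Of the 9 class II genes 1 rose, 0 fell and 8 did not pass, with 7 differences above 0 and a median of 0.14 log2. SLA-DMA, a chain of the DM molecule that helps load peptides onto class II, had 8.94, 9.09 and 9.31 log2 in exercised animals, against 8.79, 8.88 and 9.13 log2 in sedentary animals. The exercised animals lay above all sedentary animals except sedentary 6. The difference was 0.21 log2 (SE 0.06, a fold of 1.16, adjusted p = 0.0373). It passed in 4 of the 16 fits that left out 1 animal, those without exercised 2, 4 or 8 or sedentary 6, and its adjusted p was 0.0508 to 0.0765 in the other 12. With filters on level it was 0.0906 and 0.157, with a trended and robust prior 0.0629, and with the mean of its probe sets 0.257. The other SLA-DMA probe set differed by 0.13 log2 (adjusted p = 0.701). SLA-DMB, the other DM chain, differed by 0.03 log2 (95% interval -0.25 to 0.31), and SLA-DOA, a chain of the DO molecule that restrains DM, by -0.04 log2. Without exercised 2 these were -0.05 and -0.11 log2.

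CD74, the invariant chain that guides class II molecules to the loading compartment, had the largest negative difference of the 47. It had 9.93, 10.26 and 11.06 log2 in exercised animals, against 10.29, 10.71 and 11.10 log2 in sedentary animals. Exercised 2, 7 and 8 lay among the sedentary values, above the sedentary mean, and the other 5 exercised animals were below that mean. The difference was -0.34 log2 (95% interval -0.70 to 0.02, adjusted p = 0.217), and -0.45 log2 (adjusted p = 0.0565) without exercised 2.

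The chains that form the class II molecules themselves did not pass. SLA-DRA had 10.91, 11.47 and 12.28 log2 in exercised animals, against 10.39, 11.46 and 11.87 log2 in sedentary animals, and SLA-DRB1 had 10.64, 11.02 and 11.82 log2 in exercised animals, against 9.90, 11.22 and 11.40 log2 in sedentary animals. Their differences were 0.14 and 0.17 log2. SLA-DQA1 and SLA-DQB1 differed by 0.22 and 0.12 log2. All 4 were lowest in sedentary 8, a female, and all but SLA-DQB1 were highest in exercised 2. Without sedentary 8 the differences were -0.03 log2 for SLA-DRA, -0.005 log2 for SLA-DRB1, 0.06 log2 for SLA-DQA1 and 0.01 log2 for SLA-DQB1.

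IFI30, a lysosomal thiol reductase that unfolds antigens for class II loading, had 7.73, 8.26 and 8.90 log2 in exercised animals, against 7.45, 7.84 and 8.32 log2 in sedentary animals. Exercised 1 was highest and sedentary 6 lowest, and the difference was 0.41 log2 (95% interval 0.08 to 0.75, adjusted p = 0.0959).

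With the spike-in split as a block, 7 of the 47 genes rose and 0 fell, namely IRF7, IRF8, ISG20, GBP1, SLA-7, TAPBP and SLA-DMA. The background in that fit was 7.61% of named genes higher on their brightest probe set, and 18.1% of all probe sets in either direction. Among high-spike arrays 26 of the 47 plain differences of means were above 0 (median 0.04 log2), against 22 in the fit with sex (median -0.03 log2), so the sign of the median depended on the sex term. Among low-spike arrays 36 plain differences were above 0 (median 0.26 log2). These set exercised 7 and 8, castrated males, against sedentary 6 and 7, castrated males, and sedentary 8, a female. Training and sex are thus partly mixed in them. IRF7 differed by 0.46 log2 among high-spike and 0.35 log2 among low-spike arrays, ISG20 by 0.42 and 0.48 log2, and SLA-DMA by 0.27 and 0.10 log2. A fit on high-spike arrays alone called 3 genes higher, GBP1, GBP2 and SLA-DMA. The share of all named genes called in that fit is not given here, so this count has no background.

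In females ISG20 rose by 0.55 log2 (adjusted p = 0.0146) and the other 46 genes did not pass, beside 1.45% of named genes higher. In castrated males 0 of the 47 passed in limma and 1 had an unadjusted p under 0.05, beside 2.57% of named genes called. The median difference was 0.25 log2 in females and 0.01 log2 in castrated males, beside 0.02 and 0.01 log2 over all named genes. All exercised females had high-spike arrays, but sedentary 8, a female, had a low-spike one. The female effect is thus partly mixed with the array split. The castrated males on low-spike arrays were exercised 7 and 8 and sedentary 6 and 7. The difference between the female and castrated male effects was tested directly and 0 of the 47 passed in limma, beside 0% of all probe sets. An unadjusted p under 0.05 was found for 0 of the 47 and for 2.59% of all probe sets. The female effect was the higher one in 36 of the 47 genes, and in 14 of the 16 effectors, beside 3597 of 6765 named genes.

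Exercised 2 is one of the 4 exercised females. Without it the median difference in females was 0.14 log2, and the female effect was the higher one in 31 genes. RSAD2 differed by 0.93 log2 in females and 0.14 log2 in castrated males with all animals, and by 0.38 log2 in females without exercised 2. IRF1 went the other way, with -0.28 log2 in females, which include sedentary 1, and 0.68 log2 in castrated males, which include exercised 7. Averaged over training, 0 of the 47 genes passed between females and castrated males in limma, beside 0.0919% of all probe sets. An unadjusted p under 0.05 was found for 1 of the 47 and for 9.26% of all probe sets.

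**Figure D5:**
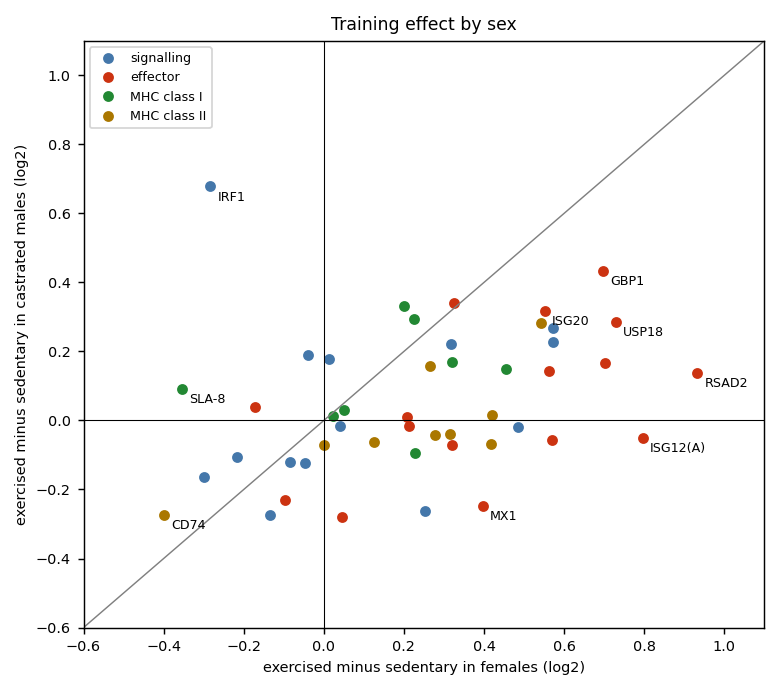
Exercised minus sedentary log2 difference of each of the 47 genes in females (horizontal axis) and in castrated males (vertical axis), coloured by role; the grey line marks equal values. Most effectors lie right of the line, such as RSAD2 at 0.93 and 0.14 log2, and IRF1 lies far above it at -0.28 and 0.68 log2.

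Other genes of the pathway were read from 6 lists with 61 measured genes, of which 1 rose and 3 fell. Of 4 measured interferons, 3 fell, beside 4.91% of all named genes and 12.3% of those whose level was no higher than the 40th percentile. IFNA1, a type I interferon, had 4.99, 5.20 and 5.36 log2 in exercised animals, against 5.40, 5.60 and 5.88 log2 in sedentary animals, and the groups did not overlap (difference -0.41 log2, SE 0.09, adjusted p = 0.00628). IFNB1, another, had 3.53, 3.75 and 3.96 log2 in exercised animals, against 3.85, 4.24 and 4.39 log2 in sedentary animals (difference -0.41 log2, adjusted p = 0.0063). IFNG, the type II interferon of lymphocytes, had 3.96, 4.20 and 4.34 log2 in exercised animals, against 4.25, 4.47 and 5.09 log2 in sedentary animals (difference -0.36 log2, adjusted p = 0.0292). All 3 probe sets lay below the 40th percentile of level, where a filter on level removes them. Exercised 2 lay at 5.07 log2 for IFNA1 and 4.19 log2 for IFNG, inside the exercised range. For IFNB1 it lay at 3.96 log2, the top of the exercised range. All 3 of its values were below the sedentary medians.

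Of 8 measured genes on the list for nucleic acid sensing 1 rose and 7 did not pass, beside 5.11% of all named genes higher. The gene that rose, TREX1, is not itself a sensor. TREX1, the exonuclease that clears DNA from the cytosol, had 7.26, 7.55 and 7.85 log2 in exercised animals, against 6.79, 7.02 and 7.41 log2 in sedentary animals (difference 0.49 log2, SE 0.10, adjusted p = 0.00424). Its values overlapped narrowly, and it passed without exercised 2 as well (0.44 log2, adjusted p = 0.00831). The 7 measured interferon receptor chains and JAK kinases did not pass, with JAK2 at -0.22 log2 (adjusted p = 0.241) and IFNAR2 at 0.12 log2 (adjusted p = 0.526), and 0 had an unadjusted p under 0.05.

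Of 18 other interferon-induced effectors 0 passed in limma, 4 had an unadjusted p under 0.05, 17 were above 0, and the median was 0.20 log2. PARP9, an ADP-ribosyltransferase family member, differed by 0.45 log2 (adjusted p = 0.0611), and PNPT1, a mitochondrial RNA exonuclease, by 0.37 log2 (adjusted p = 0.088). Exercised 2 was the highest animal in 9 of these 18, with a list level of 0.59 log2 against at most 0.16 log2 in the other exercised and 0.05 log2 in the sedentary animals. Of 6 negative regulators 0 passed (2 at an unadjusted p under 0.05), among them the phosphatases PTPN6 at -0.36 log2 and PTPN2 at -0.16 log2. Of 18 genes of antigen processing and MHC regulation 0 passed (4 at an unadjusted p under 0.05), with the transcription factor CREB1 at -0.46 log2 (adjusted p = 0.059) and the immunoproteasome subunit PSMB10 at 0.19 log2 (adjusted p = 0.121).

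Markers of other cell types were read beside these genes. Of 22 measured leukocyte markers 7 rose and 2 fell, beside 5.11% of all named genes higher and 4.91% lower. Those that rose were the killer-cell proteins GNLY (0.69 log2) and GZMH (0.61 log2), the T cell receptor chains CD3G (0.56 log2) and CD247 (0.34 log2), the B cell receptor chain CD79B (0.26 log2), and ITGAM (0.54 log2) and S100A8 (0.49 log2) of myeloid cells. PRF1, perforin, fell by 0.72 log2, and XCR1, a receptor of dendritic cells, fell by 0.35 log2. Without exercised 2, GNLY (0.61 log2, adjusted p = 0.0544), XCR1 (-0.36 log2, adjusted p = 0.0601) and CD247 (0.33 log2, adjusted p = 0.0766) missed the threshold. The mean deviation over the 22 ran from -0.10 to 0.35 log2 in exercised animals, with exercised 2 at 0.26 log2. In sedentary animals it ran from -0.50 log2, in sedentary 8, to 0.30 log2. The part of the leukocyte markers in the values of the interferon and MHC genes was not tested.

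Of the measured markers, 9 endothelial, 8 fibroblast and mural, 12 cardiomyocyte and 2 red cell genes, 0 passed in limma, with 0, 1, 1 and 0 at an unadjusted p under 0.05. With the spike-in split as a block 1 cardiomyocyte marker rose and 11 did not pass, beside 7.61% of named genes higher.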

How the data were processed

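The authors deposited 1 table of log2 signals per probe set for 16 arrays. The summarisation and normalisation steps are not stated in the labels or the file, and the log2 scale was read from the deposited values, which ran from 2.87 to 14.86. No further normalization was applied, and the number of arrays limits the precision. Left out were 188 Affymetrix control probe sets. Groups came from the labels, and symbols from the platform annotation. All 47 symbols matched RefSeq by Entrez identifier, and 10 probe sets shared with other genes were left unnamed.

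A linear model holding 4 cell means, training by sex, was fitted with limma (version 3.58.1, functions lmFit and eBayes; R version 4.3.3). P values are two-sided and were adjusted by the Benjamini-Hochberg method over 23935 probe sets, and 0.05 was the threshold. Rose and fell refer to exercised relative to sedentary animals past that threshold. Each gene was read on the probe set with the highest mean level. A list's level on an array averages how far each gene lies from its own 16-array mean.

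Per-group values were given for members that passed, the 5 largest positive and negative differences otherwise, and MHC genes described, and other members were named where an animal or a probe set stood apart. From each pathway or marker list, the genes that passed were named, or up to 2 with the smallest p. Further probe sets were named where they passed or had the opposite sign. IRF8, IRF1, STAT2, IRF9, MX1 and ISG12(A) were described after their values were seen. The members and lists were chosen with earlier results of these data known. The array split came from 42 poly-A control probe sets, cut at the largest gap between arrays. Alternatives were quantile normalization, median centring, filters at the 40th and 60th percentiles of level, eBayes with trend and robust settings, weighted arrays, the replicate number or the spike-in split as a block, high-spike arrays alone, no sex term, other choices of probe set and leaving out each animal. The fit was tested on simulated data. Plots used Python 3.11.15 and its matplotlib library, version 3.10.9.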

Additional observations from a re-analysis of the deposited data

Results flagged for a closer look

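Each of the 47 genes was examined in each group of 8, 94 sets of values in all, for a highest or lowest animal far from the nearest of the others. By chance about 1 in 20 independent sets is picked out. These sets share animals and are not independent, so that rate is no measure for their number. The rule picked out 12. Of these, 7 were high values of exercised 2, namely RSAD2 at 11.15 log2, ISG12(A) at 13.14 log2, ISG15 at 11.01 log2, MX1 at 10.36 log2, USP18 at 9.27 log2, DDX58 at 8.26 log2 and IRF9 at 8.56 log2. The nearest other exercised animal had 9.42 log2 for RSAD2, 11.38 log2 for ISG12(A), 9.66 log2 for ISG15, 8.90 log2 for MX1, 7.57 log2 for USP18, 6.75 log2 for DDX58 and 7.78 log2 for IRF9.

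IRF1 was far above the rest in exercised 7, at 10.77 log2 with the next at 8.79 log2, and in sedentary 1, at 11.13 log2 with the next at 8.67 log2. GBP1 was low in sedentary 8, at 8.39 log2 with the next at 9.30 log2. SLA-DMA was high in sedentary 6, at 9.13 log2 with the next at 8.92 log2, and TAPBP was high in sedentary 7, at 8.28 log2 with the next at 8.09 log2.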

How the results depend on the processing

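Dim signals, 1 array per animal and an array split that the labels do not name limit these values. The number of the 47 genes called higher, 3, was 0 with either filter on level, 6 with array weights, 8 with the replicate block, 7 with the spike-in block and 6 with the smallest-p probe set, which also called 1 lower; it was 1 to 4 when 1 animal was left out, and 0 were then called lower. It was 1 without exercised 7 or sedentary 1, 2, 3 or 4. Shares of all named genes called are given above for the spike-in block and the fit without exercised 2. They are not given for the other alternatives, so those counts have no background. In females, where 1 was called, the filters left 0, array weights gave 2, the spike-in block 3, high-spike arrays alone 2, the smallest-p probe set 2, and leaving out 1 animal 1 to 2. In castrated males the spike-in block and the smallest-p probe set gave 1 each. For the difference between the sexes' effects and for the sex difference the count was 0 in all 11 alternatives and 16 leave-one-out fits. Of the pathway genes, 1 called higher became 4 with the replicate block and 2 with the spike-in block, high-spike arrays or the smallest-p probe set, and 1 to 2 when 1 animal was left out. The 3 called lower became 0 with either filter, 5 with array weights or high-spike arrays, 6 with the replicate block, spike-in block or smallest-p probe set, and 2 to 5 when 1 animal was left out. The median over the 47 genes was -0.03 log2 in the fit on high-spike arrays alone and 0.06 to 0.21 log2 when 1 animal was left out. Under some alternative 18 of the 47 genes changed sign, of which 0 had passed. The filters test fewer probe sets, and both remove ISG20. The 60th percentile filter also removes IRF7, at 6.43 log2 on average. Of the 37 members above that percentile 1 rose in the main fit, beside 107 of 4316 named genes above it. The cause of the other changes was not tested. Same-numbered exercised and sedentary animals had correlations of residuals from -0.03 to 0.39, 5 of 8 pairs exceeded 0.1, and 1 of 8 correlated best with its own number. As the labels give no shared litter or day and not every pair exceeded 0.1, the numbers were not taken to pair animals.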
